A study of Rattus norvegicus with 12 samples.

Results

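The transcripts of 10 enzymes that modify and crosslink collagen were followed in kidneys of rats with 2 kinds of renal fibrosis. They were the lysyl oxidases Lox, Loxl1, Loxl2, Loxl3 and Loxl4, the lysyl hydroxylases Plod1, Plod2 and Plod3, and the prolyl 4-hydroxylase catalytic subunits P4ha1 and P4ha3. The genes were chosen by symbol, and each of the 10 had 1 entry in both expression tables, out of 22132 for the control and adenine samples and 32623 for the sham and UUO samples. Gene expression had been measured by sequencing of poly(A) RNA from kidneys of 12 male SD rats, wild type by their labels, in 4 groups of 3. The adenine group had received adenine, a purine that precipitates in the tubules as crystals of its metabolite, by gavage over 3 weeks in a daily dose of 220 mg/kg, and the control group saline for the same time. In the UUO group (unilateral ureteral obstruction) the left ureter was ligated and the kidney taken 2 weeks later, and the sham group was operated on without ligation. The rats were 8 weeks old at purchase.

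Collagen is made in the endoplasmic reticulum, where prolyl 4-hydroxylases hydroxylate proline residues so that the triple helix is stable at body temperature. Lysyl hydroxylases hydroxylate lysine residues in the same compartment, and both kinds of enzyme need iron, oxygen, 2-oxoglutarate and ascorbate. After secretion, the copper enzymes of the lysyl oxidase family oxidize lysine and hydroxylysine side chains to aldehydes, which react with each other to join collagen and elastin molecules into insoluble fibres, the kind of matrix that accumulates in a fibrotic kidney.

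The stretch around the transcription start was available for 8 of the 10 genes in RefSeq (rat assembly GRCr8), as 250 bases before and 50 bases after the start. The genome build behind the expression tables is not given in the sources used here, so the coordinates below belong to GRCr8 alone. The windows shown are those of Loxl1, the gene with the highest level of all 10 in both diseased groups, and of Plod2 and P4ha1, which were the only 2 of the 8 windows with the letters ACGTG. They lie at chr8:67612175-67612474 on the minus strand for Loxl1, at chr8:101964068-101964367 on the plus strand for Plod2 and at chr20:27844796-27845095 on the plus strand for P4ha1, and are written 5′ to 3′ along the gene. Capitals mark, on either strand, ACGTG and GCGTG, the core letters of the hypoxia response element, and CAGAC, the Smad box.
Loxl1: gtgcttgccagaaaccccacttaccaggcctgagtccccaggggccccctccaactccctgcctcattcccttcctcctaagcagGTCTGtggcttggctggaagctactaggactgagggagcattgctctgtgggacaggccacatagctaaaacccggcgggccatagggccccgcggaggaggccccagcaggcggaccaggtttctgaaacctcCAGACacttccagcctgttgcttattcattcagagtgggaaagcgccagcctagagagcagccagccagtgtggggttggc
Plod2: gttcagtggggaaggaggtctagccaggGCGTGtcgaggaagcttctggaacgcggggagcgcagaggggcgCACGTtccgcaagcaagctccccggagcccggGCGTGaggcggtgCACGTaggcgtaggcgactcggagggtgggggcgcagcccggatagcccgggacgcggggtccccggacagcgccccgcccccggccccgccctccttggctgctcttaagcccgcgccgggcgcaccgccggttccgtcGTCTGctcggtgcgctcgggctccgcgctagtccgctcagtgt
P4ha1: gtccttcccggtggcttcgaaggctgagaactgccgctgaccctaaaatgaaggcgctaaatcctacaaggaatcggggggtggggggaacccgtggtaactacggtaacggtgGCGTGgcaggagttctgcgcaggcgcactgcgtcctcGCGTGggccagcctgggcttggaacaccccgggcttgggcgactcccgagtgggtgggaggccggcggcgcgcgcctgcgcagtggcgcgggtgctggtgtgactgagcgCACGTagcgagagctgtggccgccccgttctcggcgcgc

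The window of Plod2 held 2 copies of ACGTG and 2 of GCGTG, and that of P4ha1 held 1 and 2. The window of Loxl1 held neither and had 2 copies of CAGAC. Over 27457 RefSeq windows of the same length, searched on both strands, ACGTG was present in 19.7%, GCGTG in 31.1% and CAGAC in 50.0%. Among the 8 enzyme windows, 2 held ACGTG, 5 held GCGTG and 6 held CAGAC, while the AP-1 letters TGANTCA (7.33% of all windows) and the TATA box TATAAA (14.3%) were in none. The Sp1 GC box GGGCGG was in 6 of the 8 (34.9% of all) and CCAAT in 1 (37.7% of all). The 8 windows had a GC content between 61% and 73.7%, against a median of 52.3% over all windows. These are matches of letters, and binding was not measured in this study.

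Expression was given as FPKM, in which fragments are scaled to transcript length and library size, so that levels can be compared between genes. A gene was called a differentially expressed gene (DEG) where its adjusted p (Benjamini-Hochberg) was under 0.05 and its log2 fold change was 2 or more in either direction, and the words rose and fell are used for an adjusted p under 0.05 alone. Fold changes and adjusted p-values come from limma on log2(FPKM + 0.1), a scale that understates changes of genes with low FPKM. Levels summed to 564972 to 582725 FPKM in control, 468389 to 487770 in adenine, 619664 to 630244 in sham and 528811 to 539011 in UUO samples, and replicates of a group correlated at 0.952 to 0.971 (Pearson r, log2 scale). The median log2 fold change over all tested entries was 0.30 in the adenine and 0.62 in the UUO model, and a median-of-ratios scaling brought it to 0.069 and 0.084. The summed FPKM of 5 proximal tubule markers went from 1304 to 1698 in control to 143 to 372 in adenine samples, and from 1602 to 1792 in sham to 268 to 470 in UUO samples, so that these kidney markers were present in every sample. In whole kidney, fewer cells of a type and less RNA per cell cannot be told apart, for these and for all genes that follow.

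In the adenine model, all 9 tested enzyme genes rose and 4 of them were DEGs, namely Lox, Loxl1, Loxl2 and Loxl4, the last of which passed the filter on low values only through the adenine samples. Of all 15029 tested entries, 39.6% rose and 10.7% were upregulated DEGs. In the UUO model the same 9 genes rose and all 5 lysyl oxidases were DEGs, where 56.1% of 15043 entries rose and 13.2% were upregulated DEGs. No hydroxylase reached the DEG threshold in either of these fits, and none of the 9 genes fell. Downward, 19.9% of entries fell and 5.03% were DEGs in the adenine table, and 14.4% fell and 4.21% were DEGs in the UUO table. With median-of-ratios scaling the shares of entries that rose and fell were 31.1% and 26.8% in the adenine and 30.2% and 26.3% in the UUO table. Each of the 9 had all 3 diseased samples above all 3 of its controls in both models, as 45.0% of entries had in the adenine and 60.0% in the UUO table. P4ha3 did not reach FPKM of 0.5 in 3 samples of either table and was not tested. The 9 genes kept an adjusted p under 0.05 in each of the 15 alternative fits per model, whereas the DEG count in the UUO model fell from 5 to 3 with a pseudocount of 1, with median-of-ratios scaling and with quantile normalization, since Loxl3 and Loxl4 then missed the fold threshold, and that in the adenine model from 4 to 3 with a pseudocount of 1, where Loxl4 missed it. With median-of-ratios scaling, upregulated DEGs made up 9.16% of all entries in the adenine and 8.70% in the UUO table. Over the 9 genes the log2 fold changes had a median of 1.79 (adenine) and 2.04 (UUO).

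**Figure D1:**
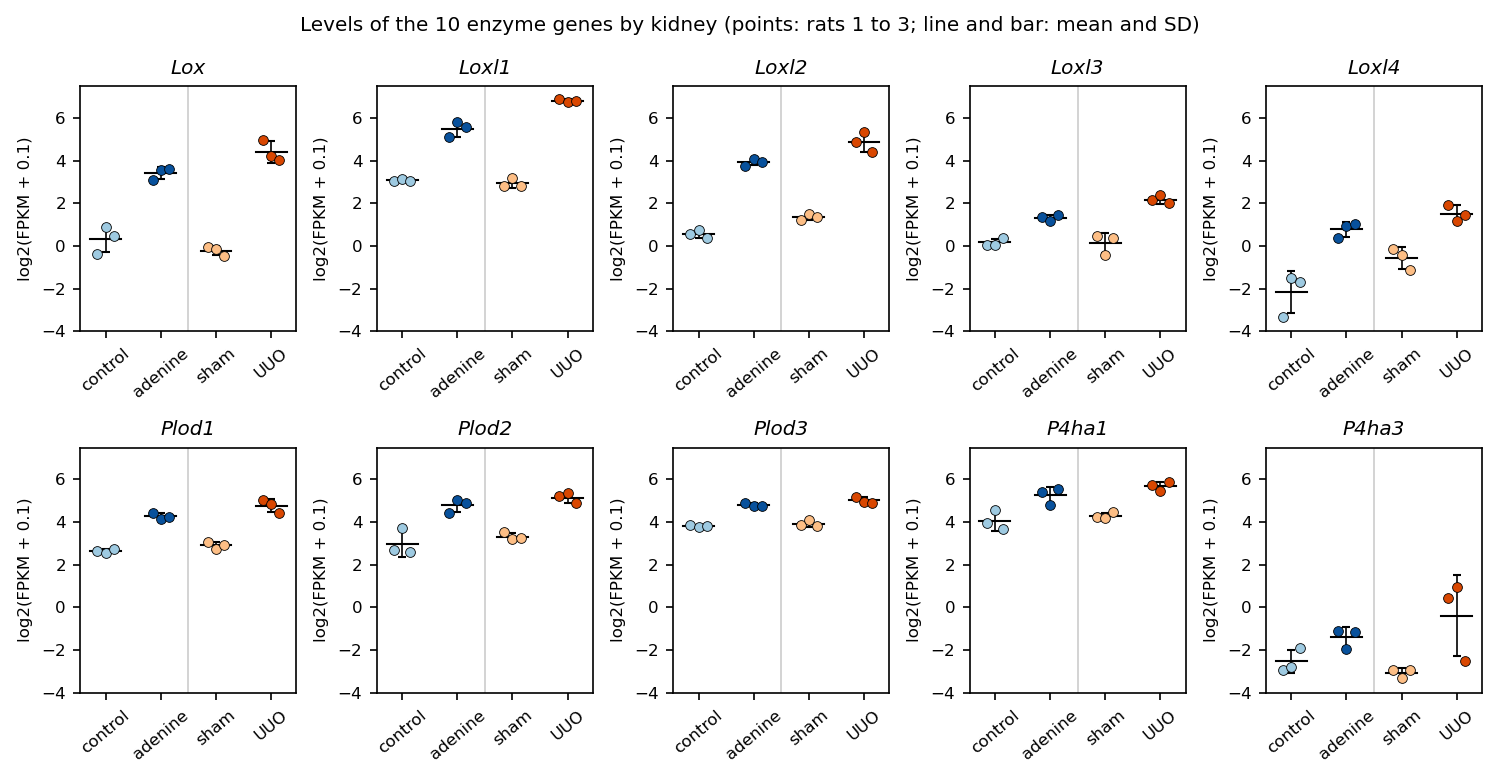
Each panel plots log2(FPKM + 0.1) of 1 gene in the 3 rats of each group (control, adenine, sham, UUO), with the mean and SD of each group, and a grey line separates the 2 tables. Diseased samples lie above their controls in every panel except that of P4ha3 in the adenine model, where the groups overlap, and the lowest control point of Loxl4 is a sample listed at 0.

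**Figure D2:**
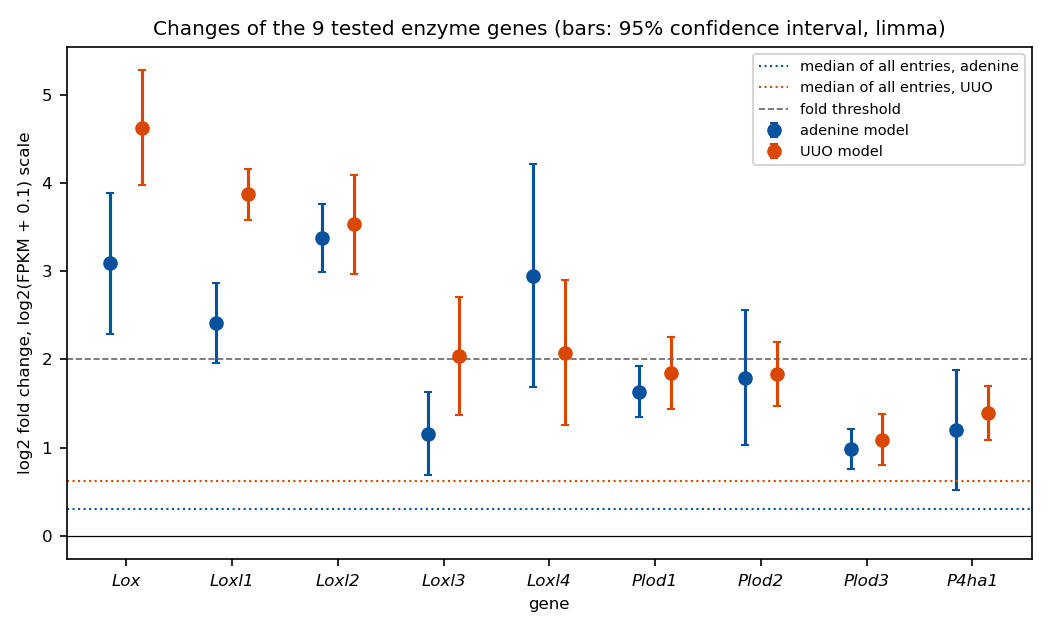
Points give the log2 fold change of the 9 tested genes in the adenine (blue) and UUO (orange) models, with 95% confidence intervals from limma, the median of all tested entries in each model (dotted) and the fold threshold of 2 (dashed). Lox and Loxl1 stand higher in the UUO model, and the 4 hydroxylases lie below the threshold in both.

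Loxl1, a lysyl oxidase that works mainly on elastic fibres, was expressed at the highest level of its family in every group. Its FPKM was 8.10, 8.83 and 8.09 in control and 34.0, 56.4 and 47.0 in adenine samples. The lowest adenine sample was well above the highest control, a log2 fold change of 2.41 (SE 0.19, adjusted p = 0.000113, limma). In the UUO table it was 6.94, 8.99 and 6.92 in sham and 118, 107 and 111 in UUO samples. The 3 obstructed kidneys differed little from each other, with a coefficient of variation of 5.10%, and the mean was 14.7-fold that of sham, a log2 fold change of 3.87 (SE 0.12, adjusted p = 5.84e-06, limma). By mean FPKM, Loxl1 had rank 4 among the 10 genes in both control and sham and rank 1 in adenine and UUO. In UUO its range did not overlap that of P4ha1, the gene ranked next, and in adenine the ranges overlapped.

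Lox is the founding member of the family and crosslinks fibrillar collagen and elastin. Its FPKM was 0.674, 1.72 and 1.29 in control and 8.46, 11.7 and 11.98 in adenine samples, a log2 fold change of 3.09 (SE 0.34, adjusted p = 0.000383, limma). In the obstruction table it was 0.857, 0.803 and 0.618 in sham and 31.2, 18.4 and 16.1 in UUO samples. All 3 UUO samples were far above sham, with the first of them the highest, and the log2 fold change of 4.63 (SE 0.27, adjusted p = 2.64e-05, limma) was the largest of the 9 genes in either model, although with a pseudocount of 1 it was 3.65 beside 3.72 for Loxl1.

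Loxl2, which crosslinks collagen IV of basement membranes, had an FPKM of 1.36, 1.55 and 1.20 in control and 13.5, 16.8 and 15.3 in adenine samples. The adenine samples were alike, and the log2 fold change of 3.38 (SE 0.16, adjusted p = 2.74e-05, limma) was the largest of the 9 in that model, except with a pseudocount of 0.01, where Loxl4 was at 4.29 and Loxl2 at 3.46. In sham samples its FPKM was 2.24, 2.70 and 2.46 and in UUO samples 29.5, 40.8 and 21.4. The UUO samples spread more widely, and the log2 fold change was 3.53 (SE 0.23, adjusted p = 3.96e-05, limma).

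Loxl3 and Loxl4 were the least abundant lysyl oxidases in control, adenine and UUO samples, while in sham Lox stood between them with overlapping ranges. Loxl3 had an FPKM of 0.934, 0.941 and 1.20 in control and 2.44, 2.16 and 2.61 in adenine samples, a log2 fold change of 1.16 (SE 0.20, adjusted p = 0.00265, limma) that was below the DEG threshold. In the UUO table it was 1.26, 0.646 and 1.20 in sham and 4.29, 5.18 and 3.88 in UUO samples. Here the log2 fold change was 2.04 (SE 0.28, adjusted p = 0.000697, limma), just past the threshold, and it was 1.76 without sham 2 and 1.93 without UUO 2. Loxl4 was listed at 0 in 1 control sample and was 0.248 and 0.212 in the others, against 1.18, 1.80 and 1.96 in adenine samples. The groups did not overlap, but Loxl4 reached the minimum FPKM in this table through the adenine samples alone. Its log2 fold change of 2.95 (SE 0.53, adjusted p = 0.00321, limma) also depends on the pseudocount, being 1.19 with a pseudocount of 1 and 4.29 with 0.01. Loxl4 was 0.810, 0.636 and 0.353 in sham and 3.71, 2.14 and 2.59 in UUO samples, with a log2 fold change of 2.08 (SE 0.34, adjusted p = 0.00157, limma) that was 1.79 without sham 3 and 1.87 without UUO 1.

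The lysyl hydroxylases rose by less than Lox, Loxl1 and Loxl2 in both models. In the adenine model Plod1 and Plod2 rose by more than Loxl3 (1.16). In the UUO model Loxl3 and Loxl4 were above Plod1, but with quantile normalization they were at 1.21 and 1.19 beside 1.34 for Plod1. Plod1 hydroxylates lysine in the triple-helical part of collagen, and its FPKM was 6.12, 5.75 and 6.53 in control and 21.2, 17.7 and 19.0 in adenine samples. The log2 fold change was 1.64 (SE 0.12, adjusted p = 8.90e-05, limma). In sham samples Plod1 was 8.26, 6.68 and 7.62 and in UUO samples 32.6, 28.7 and 21.7, a log2 fold change of 1.85 (SE 0.17, adjusted p = 0.000125, limma) that was 2.02, past the DEG threshold, without UUO 3.

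Plod2 hydroxylates the telopeptide lysines, from which the hydroxylysine-derived crosslinks of fibrotic collagen are built. Its FPKM was 6.33, 13.0 and 5.94 in control and 21.8, 32.8 and 29.4 in adenine samples. Control 2 lay between the other controls and the adenine samples. The log2 fold change was 1.79 (SE 0.32, adjusted p = 0.00312, limma), and it was 2.15, past the DEG threshold, without control 2. In sham samples Plod2 was 11.5, 9.02 and 9.32 and in UUO samples 37.2, 40.5 and 29.6, a log2 fold change of 1.83 (SE 0.15, adjusted p = 8.81e-05, limma).

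Plod3, which also transfers glucose to hydroxylysine residues, had the smallest change of the 9 genes in both models, except in the adenine model with a pseudocount of 1 and with quantile normalization, where Loxl3 was lower (0.75 beside 0.94, and 0.59 beside 0.86). Its FPKM was 14.4, 13.7 and 14.1 in control and 29.6, 26.9 and 27.3 in adenine samples, a log2 fold change of 0.98 (SE 0.09, adjusted p = 0.000237, limma). In sham samples it was 14.6, 16.9 and 14.0 and in UUO samples 36.7, 30.9 and 29.6, a log2 fold change of 1.09 (SE 0.12, adjusted p = 0.000269, limma). These samples were tightly grouped, and the change was larger than the spread between rats.

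The ratio of Plod2 to Plod1 within a sample does not depend on how samples were scaled. Its log2 value was 0.048, 1.17 and -0.14 in control and 0.035, 0.88 and 0.63 in adenine samples, and the groups overlapped (difference 0.16, exact permutation p = 0.9, n = 3 per group, two-sided). In sham samples it was 0.47, 0.43 and 0.29 and in UUO samples 0.19, 0.50 and 0.45, again overlapping (difference -0.019, exact permutation p = 0.9, n = 3 per group). The smallest p that 3 against 3 samples can give is 0.1, so this test could not have passed 0.05 in either model.

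P4ha1 carries the catalytic site of the main prolyl 4-hydroxylase and was the most abundant of the 10 genes in control and sham. Its FPKM was 15.5, 23.4 and 12.5 in control and 42.8, 27.6 and 47.0 in adenine samples. Adenine 2 was close to control 2, and the log2 fold change was 1.20 (SE 0.29, adjusted p = 0.0103, limma). In sham samples it was 18.8, 18.3 and 21.8 and in UUO samples 53.3, 44.1 and 58.2, a log2 fold change of 1.39 (SE 0.13, adjusted p = 0.000128, limma) with less spread.

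P4ha3, a minor catalytic subunit, was the lowest of the 10 genes in every group. Its FPKM was 0.0323, 0.0458 and 0.168 in control and 0.361, 0.159 and 0.347 in adenine samples, where 1 adenine sample lay below the highest control. In sham samples it was 0.0306, 0.0001 and 0.0326, of which 0.0001 is the lowest value the table holds, and in UUO samples 1.24, 1.84 and 0.0722. The first 2 UUO samples were above FPKM of 1 and the third was near the sham values. With no filter on low values, limma gave a log2 fold change of 1.12 (SE 0.39, adjusted p = 0.0587) in the adenine model and 2.67 (SE 0.89, adjusted p = 0.0420) in the UUO model.

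The rises were next compared between the models, as the difference of the log2 fold changes, UUO minus adenine, tested over 13486 symbols present once and tested in both tables. Of these, 27.0% differed at an adjusted p under 0.05, 21.7% with the larger log2 fold change in UUO and 5.25% with the larger one in adenine. This split depended on the scaling, being 8.10% and 10.8% with median-of-ratios scaling and 9.62% and 10.1% with quantile normalization. Of the 9 enzyme genes 2 differed, and both were higher in UUO. Loxl1 differed by 1.46 (SE 0.22, adjusted p = 0.000874) and kept an adjusted p under 0.05 in all 21 alternatives. Lox differed by 1.54 (SE 0.43, adjusted p = 0.0194), but with median-of-ratios scaling the difference was 1.25 (adjusted p = 0.0655), with quantile normalization 1.302 (adjusted p = 0.0662) and without adenine 1 it was 1.38 (adjusted p = 0.0545). The models differ in agent, route, time and kind of control, and their tables were normalized separately. These cannot be told apart here.

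For the other 7 genes a difference was not called. Loxl3 was nearest, at 0.88 (95% confidence interval 0.14 to 1.62, adjusted p = 0.0726). Loxl2 differed by 0.15 (-0.46 to 0.77) and Loxl4 by -0.87 (-2.23 to 0.49). Plod1 differed by 0.21 (-0.24 to 0.66), Plod2 by 0.040 (-0.73 to 0.81), Plod3 by 0.11 (-0.22 to 0.44) and P4ha1 by 0.19 (-0.48 to 0.87). Except for Loxl3, the intervals of these genes, lysyl oxidases and hydroxylases alike, lie below the difference of Loxl1. Those of Plod1 and Plod3 are the narrowest, while that of Loxl4 is the widest.

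The make-up of the lysyl oxidase family was examined as the share of each gene in the summed FPKM of the 5, a quantity within each sample. The sum was 12.1 ± 1.12 in control and 75.8 ± 14.9 in adenine samples, and 12.5 ± 1.16 in sham and 172 ± 16.3 in UUO samples (SD, n = 3). Loxl1 made up more than any other in all 12 samples. Its share was 73.2%, 66.4% and 67.5% in control and 57.1%, 63.5% and 59.6% in adenine samples, lower in all 3, whereas in the UUO table it was 57.3%, 65.2% and 59.9% in sham and 63.3%, 61.7% and 71.5% in UUO samples, which overlapped.

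The share of Lox was higher in all diseased samples of both models, at 6.09%, 13.0% and 10.8% in control against 14.2%, 13.1% and 15.2% in adenine samples, and 7.07%, 5.83% and 5.35% in sham against 16.7%, 10.6% and 10.4% in UUO samples. In the adenine model the highest control and the lowest adenine value were almost the same. The share of Loxl2 was 12.3%, 11.7% and 9.99% in control and 22.6%, 18.9% and 19.4% in adenine samples, so all 3 were higher. In the UUO table it was 18.5%, 19.6% and 21.3% in sham and 15.8%, 23.5% and 13.8% in UUO samples, which overlapped. Loxl3, although it rose in both models, made up a smaller share in all diseased samples, 8.50% ± 1.45 in control against 3.28% ± 0.829 in adenine and 8.51% ± 3.30 in sham against 2.59% ± 0.353 in UUO samples (SD, n = 3). The share of Loxl4 was higher in all adenine samples (1.98%, 2.02% and 2.49%) than in controls (0%, 1.86% and 1.77%) and lower in all UUO samples (1.98%, 1.23% and 1.67%) than in sham (6.69%, 4.62% and 3.06%). In the adenine model the highest control and the lowest adenine share of Loxl4 were close. The difference of the means was 0.96 percentage points, and 0.35 without the control listed at 0. The 8 shares without overlap each had the smallest exact permutation p of 0.1 and an adjusted p of 0.125 over the 10 tests.

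**Figure D3:**
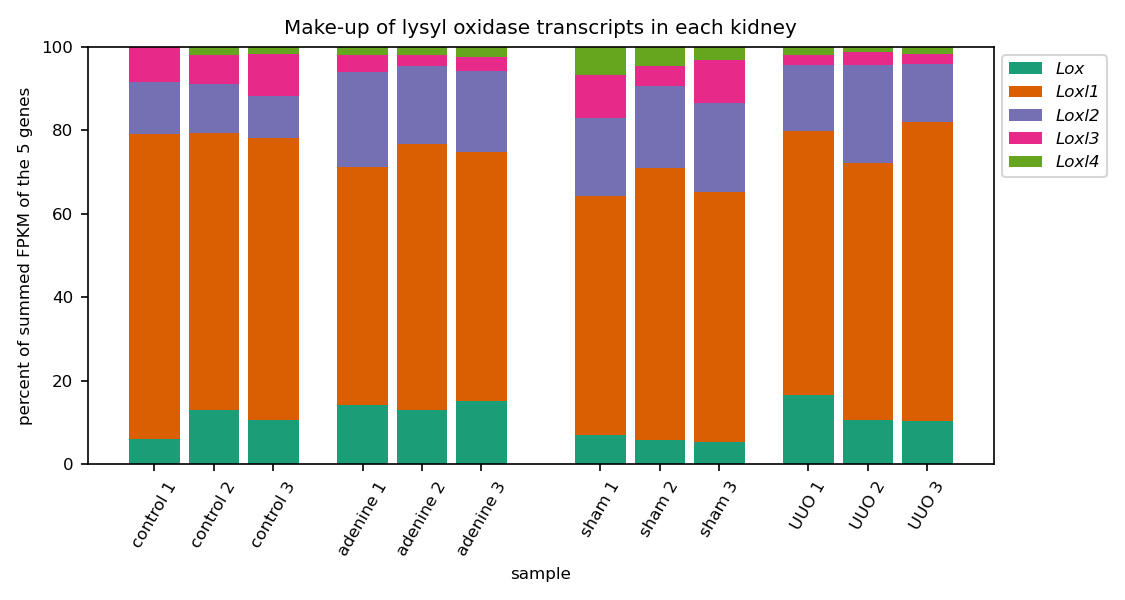
Stacked bars give, for each of the 12 samples, the percent of the summed FPKM of the 5 lysyl oxidases that each gene contributes. Loxl1 fills more of every bar than any other gene, the Loxl2 segment is wider in adenine than in control samples, and the Loxl3 segment is narrower in all diseased samples.

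The enzymes were then set against their substrate. Col1a1, the main chain of fibrillar collagen I, had an FPKM of 7.15, 12.2 and 8.49 in control and 117, 127 and 112 in adenine samples, and 3.37, 6.69 and 12.2 in sham and 517, 262 and 122 in UUO samples. Its log2 fold change was 3.70 (SE 0.20, adjusted p = 3.68e-05, limma) in the adenine and 5.27 (SE 0.62, adjusted p = 0.000346, limma) in the UUO model. The log2 ratio of an enzyme to Col1a1 within a sample was lower in all diseased samples for 7 of the 10 genes in the adenine table and for 8 of 10 in the UUO table, and higher in all of them for none. The median log2 fold change over all tested entries was 0.30 and 0.62, so the rise of Col1a1 alone would lower this ratio for most genes. The same count was not made over all entries, and these counts are not a trait of the enzymes. Each ratio without overlap had the smallest exact p of 0.1 and an adjusted p of 0.133 over the 20 tests.

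The ratio of Plod3 to Col1a1 went from 1.01, 0.16 and 0.73 in control to -1.98, -2.24 and -2.04 in adenine samples, and from 2.11, 1.33 and 0.20 in sham to -3.82, -3.08 and -2.04 in UUO samples (log2). Plod3 transcript thus exceeded Col1a1 transcript in all 6 control and sham samples and was below it in all 6 diseased samples, and the same held for P4ha1. The ratio of P4ha1 differed by -2.51 in the adenine and by -3.89 in the UUO model. The ratio of Lox differed by -0.50 in the adenine (exact permutation p = 0.2, n = 3 per group) and -0.49 in the UUO model (exact permutation p = 0.7, n = 3 per group), with overlap in both. Leaving out 1 sample moved the UUO value between -1.08 (without sham 3) and 0.082 (without sham 1). Loxl2 overlapped in the adenine model (difference -0.24) and was lower in all UUO samples (difference -1.70). Loxl1 was lower in all adenine samples (difference -1.28) and overlapped in the UUO model (difference -1.40), where the Col1a1 level itself ranged from 122 to 517.

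**Figure D4:**
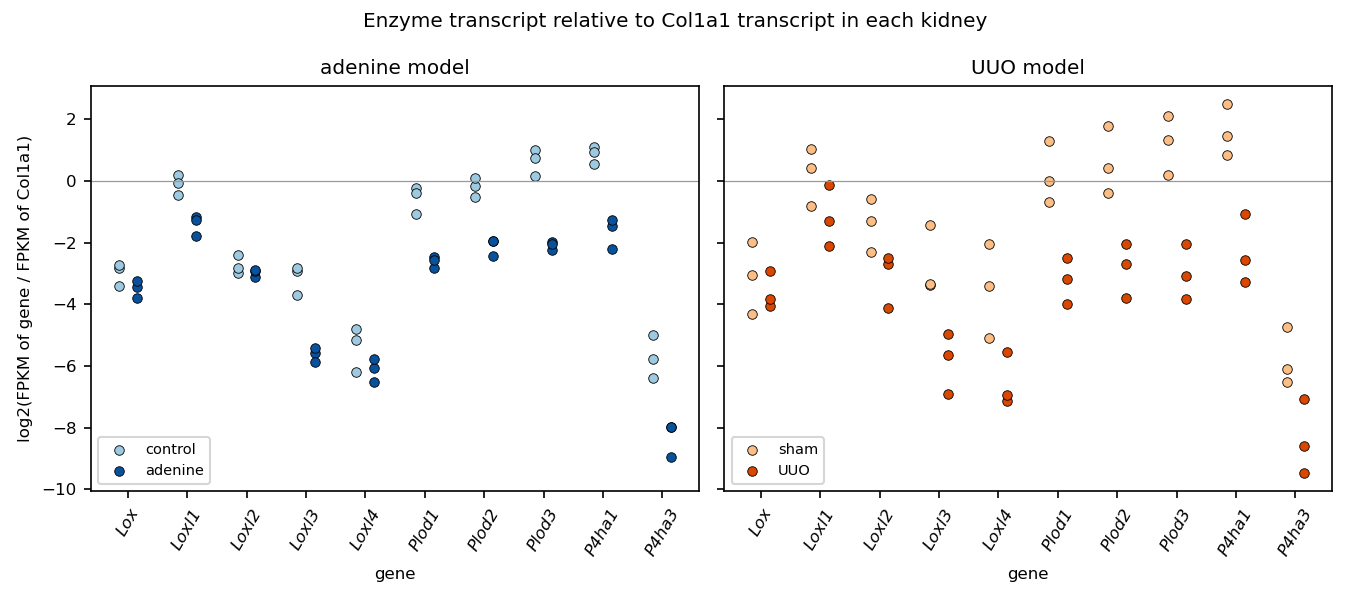
Points give the log2 ratio of each enzyme gene to Col1a1 in every sample of the adenine (left) and UUO (right) models, where 0 is equal FPKM (0.1 was added to both for P4ha3, and for Loxl4 in the adenine model). The Plod and P4ha1 points of diseased samples lie below those of their controls, while the Lox points of both groups overlap.

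The order of the 10 genes by mean FPKM was similar in control and sham, with P4ha1, Plod3, Plod2, Loxl1, Plod1 and Loxl2 in the first 6 places. In control the ranges of P4ha1 and Plod3 overlapped, as did those of Plod2 and Loxl1, of Loxl2, Lox and Loxl3 in turn, and of Loxl4 and P4ha3. In sham they overlapped for Loxl1 and Plod1 and, further down, for Loxl3, Lox and Loxl4 in turn. In adenine samples the order was Loxl1, P4ha1, Plod2 and Plod3, each overlapping the next, followed by Plod1, Loxl2, Lox, Loxl3, Loxl4 and P4ha3 without overlap. In UUO samples Loxl1 stood alone, P4ha1 followed it without overlap, and Plod2, Plod3, Loxl2, Plod1 and Lox each overlapped the next. Loxl3, Loxl4 and P4ha3 came last in that order.

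Samples of a group did not all rank alike. UUO 3 was the lowest of its group for 7 of the 10 genes, at a median deviation of -0.22 from the group mean on the log2 scale, and it was also the lowest of the 3 in Col1a1 and in Postn, with an FPKM of 70.5, 27.7 and 1.60. Loxl1 and P4ha1 were not at their lowest in that sample. Control 2 was the highest of its group for 6 of the 10 genes, Plod2, P4ha1 and Lox among them.

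Markers of other cell types were set beside these genes, and the marker lists did not all move the same way. The summed FPKM of 6 fibroblast and myofibroblast markers went from between 88.9 and 117 in control to between 344 and 432 in adenine samples, and from between 91.5 and 120 in sham to between 1110 and 1971 in UUO samples, and all 6 rose in both models. The leukocyte and macrophage markers went from between 13.3 and 17.7 to between 385 and 640 over 5 genes in the adenine table, with 4 of 5 rising, and from between 15.2 and 20.9 to between 168 and 197 over 4 genes in the UUO table, with 4 of 4 rising. The 4 urothelial markers were between 0.331 and 3.51 in control and 0.438 and 2.06 in adenine samples, and rose from between 0.206 and 1.10 in sham to between 62.1 and 117 in UUO samples. In the UUO table these 4 and the fibroblast marker Lum reached the minimum FPKM through the UUO samples alone. The 4 adipose markers were between 65.8 and 155 in control and 472 and 1925 in adenine samples, and between 43.1 and 78.8 in sham and 30.9 and 410 in UUO samples, with 1 of 4 rising in the adenine and none of 3 tested in the UUO model. Cidec fell in the UUO model (log2 fold change -2.36, adjusted p = 0.00175, limma). The highest sums were those of adenine 1 and UUO 1. Adipoq was 128 in adenine 1 beside 4.31 and 3.78 in adenine 2 and 3. It was 49.9 in UUO 1 beside 4.51 and 5.10 in UUO 2 and 3. The 3 endothelial markers measured were between 58.8 and 67.2 in control, 21.9 and 32.4 in adenine, 60.7 and 80.5 in sham and 104 and 125 in UUO samples, and the 4 podocyte markers were between 30.5 and 193, 27.9 and 64.2, 126 and 198, and 60.3 and 101. No marker was at the lowest value of its table in all samples of a group. The part of these cells in the changes of the enzyme genes was not tested.

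The enzymes were last placed among 35 other genes that handle collagen before, during and after its secretion. Of those tested, 20 of 28 rose and 4 fell in the adenine model, and 23 of 31 rose and 3 fell in the UUO model, against the 39.6% and 56.1% of all entries that rose. With median-of-ratios scaling 19 of 28 rose and 5 fell in the adenine and 19 of 31 rose and 5 fell in the UUO model, against 31.1% and 30.2% of all entries that rose. Upregulated DEGs numbered 9 and 12, and 1 gene was a downregulated DEG in both. Adamts2 in the adenine table, Postn and Tll1 in the UUO table and Adamts14 in both reached the minimum FPKM through the diseased samples alone. Crtap, Mia3 and Pcolce2 were not analysed here.

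Among the other genes of prolyl hydroxylation, 5 of 7 rose in each model, and 4 of these, P3h1, P3h3, P3h4 and Ppib, were shared. P4hb rose in the adenine model alone and P4ha2 in the UUO model alone, and P3h2 fell in the adenine model. P3h4, a partner of the lysyl hydroxylase complex, rose by 2.32 and 3.21 on the log2 scale (adenine, then UUO, as for the genes below), and P3h3, its companion prolyl 3-hydroxylase, by 1.53 and 2.56. P3h1, which modifies single prolines of collagen I, rose by 0.67 and 1.05. P4ha2, another catalytic subunit of prolyl 4-hydroxylase, rose by 1.18 in the UUO model, where it was 0.63 (adjusted p = 0.0699, limma) with median-of-ratios scaling, and had a value of 0.40 (adjusted p = 0.198, limma) in the adenine model. Colgalt1, which adds galactose to hydroxylysine, rose by 1.78 and 1.81. Its relative Colgalt2 was tested in the UUO model alone and rose by 0.95 there, or 0.46 (adjusted p = 0.137, limma) with median-of-ratios scaling.

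Of the genes of procollagen folding and export, 5 of 6 rose in both models. Fkbp10, a chaperone that assists telopeptide lysine hydroxylation by Plod2, had log2 fold changes of 2.67 and 3.68, beside 1.79 and 1.83 for Plod2. Serpinh1, the collagen chaperone HSP47, rose by 1.43 and 2.53, Sparc, a collagen-binding matrix protein, by 1.52 and 2.70, and Fkbp14 by 0.77 and 1.35. Of the procollagen processing genes, 4 of 4 rose in the adenine and 5 of 6 in the UUO model. Adamts2, the main procollagen N-proteinase, rose by 3.53 and 5.22, its relative Adamts14 by 2.37 and 3.68, the C-proteinase Bmp1, which also activates Lox, by 2.26 and 2.90, and Pcolce, the enhancer of Bmp1, by 1.19 and 2.41.

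Of the 5 other crosslinking genes and lysyl oxidase partners, 3 rose in the adenine and 5 in the UUO model. Postn, a matricellular scaffold that brings Bmp1 to Lox, had the largest log2 fold changes of the 35 genes, 4.55 and 6.37, the second with an SE of 1.26. Tgm2, the transglutaminase that crosslinks matrix proteins by another bond, rose by 2.81 and 3.07, and Efemp2, which binds Lox during elastic fibre assembly, by 2.37 and 3.03. Fmod, a regulator of collagen crosslinking, rose by 1.96 in the UUO model and was at 0.80 (adjusted p = 0.0624, limma) in the adenine model. Fbln5, which binds Loxl1 on elastic fibres and was singled out after its values were seen, fell in the adenine model, from 33.1, 39.4 and 28.7 to 20.8, 21.8 and 19.99 (log2 fold change -0.68, adjusted p = 0.00486, limma), and rose in the UUO model, from 34.4, 49.6 and 45.3 to 115, 132 and 184 (1.72, adjusted p = 0.000385, limma). With median-of-ratios scaling these values were -0.91 and 1.18.

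Of the 5 genes of copper and ascorbate supply, 2 rose and 1 fell in the adenine model, and 1 rose and 2 fell in the UUO model. Slc23a1, the ascorbate transporter of the proximal tubule, was the downregulated DEG of both models, with an FPKM of 28.6, 40.2 and 43.6 in control and 1.25, 2.42 and 1.60 in adenine samples (log2 fold change -4.36, adjusted p = 5.50e-05, limma), and of 54.7, 27.0 and 38.3 in sham and 1.501, 2.53 and 1.895 in UUO samples (-4.24, adjusted p = 4.41e-05, limma). Of the 5 proximal tubule markers, 3 fell in each model as well and 2 did not pass. The part of the proximal tubule in the fall of Slc23a1 was not tested. Slc23a2, the ascorbate transporter of most other cells, rose by 2.08 and 0.85, the second being 0.31 (adjusted p = 0.0550, limma) with median-of-ratios scaling. Atp7a, which loads copper onto lysyl oxidases in the secretory pathway, rose by 1.40 in the adenine model and was at 0.68 (adjusted p = 0.0753, limma) in the UUO model, and the copper importer Slc31a1 fell by 1.11 in the UUO model and was at -0.13 (adjusted p = 0.338, limma) in the adenine model.

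Of the substrates, 6 of 7 tested rose in adenine kidneys and 8 of 8 in UUO kidneys. Col3a1 had log2 fold changes of 4.05 and 5.10, Col5a1 of 2.80 and 3.96 and Col5a2 of 2.68 and 3.72, beside 0.98 to 1.79 and 1.09 to 1.85 for the 4 hydroxylases. Eln, the elastin that lysyl oxidases crosslink, was singled out after its values were seen. Its FPKM was 7.09, 3.57 and 3.57 in control and 16.7, 5.22 and 10.97 in adenine samples, which overlapped (log2 fold change 1.12, adjusted p = 0.0757, limma). In sham samples it was 0.718, 1.76 and 6.30 and in UUO samples 107, 60.6 and 29.3, all of them higher (log2 fold change 4.75, SE 0.79, adjusted p = 0.00163, limma). The difference between the models was 3.64 (SE 0.92, adjusted p = 0.0115). In the adenine model an adjusted p under 0.05 was reached without control 1 (1.44), without adenine 2 (1.57), with FPKM rescaled to the same sum (1.38) and with the replicate number as a block (adjusted p = 0.0182, limma).

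**Figure D5:**
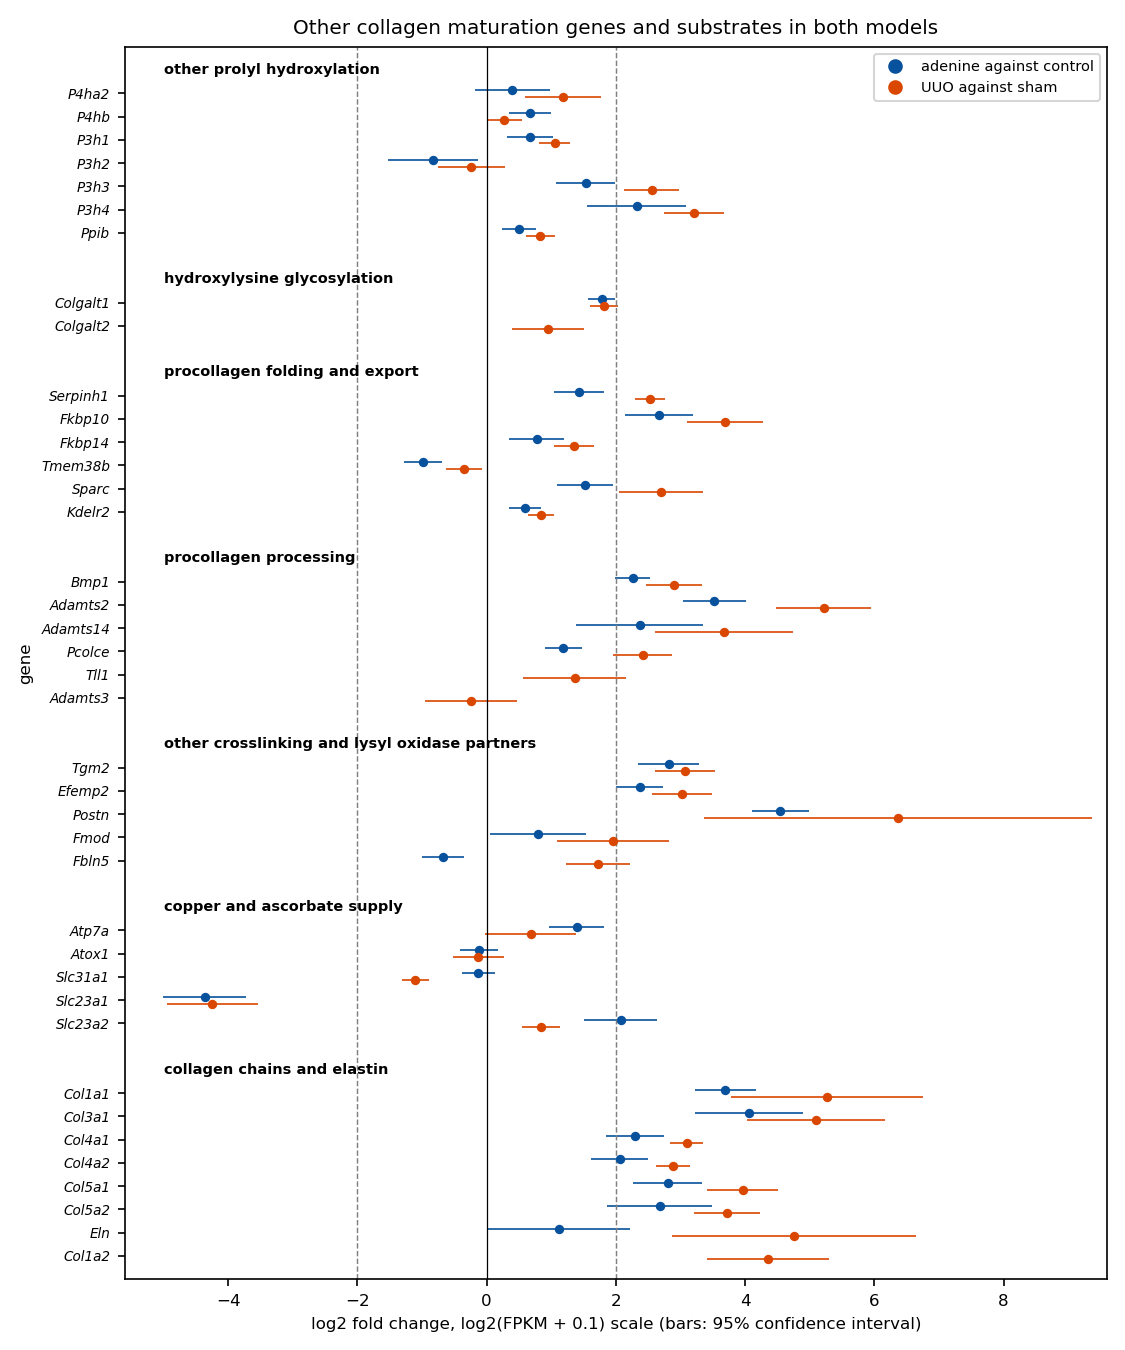
Points give the log2 fold changes of the other collagen maturation genes and substrates in the adenine (blue) and UUO (orange) models, with 95% confidence intervals from limma and dashed lines at the fold thresholds. Slc23a1 is far to the left in both models, Fbln5 lies on opposite sides of 0, and most other genes lie to the right.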

How the data were processed

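Kidney RNA of 12 rats was assigned to 4 groups of 3 by the labels. The authors deposited FPKM values per gene in 2 tables, normalized separately. The submitters' processing notes name cutadapt 1.9, HISAT2 2.0.4, StringTie 1.3.4d, edgeR and DESeq2, and the genome build is not given in the sources used here. Differential tests on read counts were not possible from FPKM, and the sequencing depth is unknown, so precision rests on the spread between 3 rats. Low FPKM values were searched for a step worth 1 read, and at most 5.45% of them shared a ratio between samples, too few to give depth.

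Each table was fitted alone with limma 3.58.1 (lmFit, eBayes with trend) in R 4.3.3 on log2(FPKM + 0.1), for entries that reached FPKM 0.5 in 3 or more of 6 samples, with Benjamini-Hochberg adjustment over all tested entries. The study's thresholds defined DEGs. The difference between models was divided by the root of the summed squared standard errors and read as t with the degrees of freedom added. Permutation tests were exact and two-sided. The fits were tested on simulated data. The enzymes, the gene lists and the tests were chosen with earlier results of these data known. By rule, all 10 enzymes were named, and from each pathway and substrate list at most the 4 genes with the largest summed absolute log2 fold changes. Fbln5 and Eln were added after their values were seen. Some further genes of these lists were named only for a call, the filter or a difference between the models. Motifs were searched in RefSeq windows with Python 3.11.15. The alternatives were other pseudocounts, filters, scalings, eBayes without trend, a replicate block, other thresholds and leaving out each sample.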

Additional observations from a re-analysis of the deposited data

Results flagged for a closer look

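By the test of the difference itself (UUO minus adenine log2 fold change, adjusted p under 0.05), 2 of the 9 enzymes and 15 of the 35 other pathway and substrate genes tested differed between the models, beside 27.0% of the 13486 symbols tested. Among the enzymes these were Loxl1, with a difference of 1.46, and Lox, with 1.54. Among the other genes named by rule, the rise was larger in the UUO model for Adamts2 (1.69), Pcolce (1.23), Sparc (1.18), Col5a1 (1.16), Serpinh1 (1.09), P3h3 (1.02), Fkbp10 (1.01) and Bmp1 (0.64). The difference was negative for the ascorbate transporter Slc23a2 (-1.23) and the copper importer Slc31a1 (-0.98). Fbln5, named after its values were seen, differed by 2.40 and moved in opposite directions in the 2 models. Outside the rule, Eln differed by 3.64, Col4a2 by 0.82, Col4a1 by 0.80 and Tmem38b by 0.64. For these other genes only the main scaling is given here. The median difference over all symbols was 0.28 in that scaling and -0.029 with median-of-ratios scaling. Fkbp10 and Bmp1 were near the threshold of this test (adjusted p = 0.0375 and 0.0427). Groups of 3 samples are too small for a test of single outlying samples.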

How the results depend on the processing

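Each of the 9 tested enzyme genes kept its direction and an adjusted p under 0.05 in both models in all alternatives. The number of DEGs among them was 4 in the adenine and 5 in the UUO model, and it was 9 and 9 with no fold-change threshold. In the adenine model it was 3 with a pseudocount of 1, where Loxl4 was at 1.19. In the UUO model it was 3 with a pseudocount of 1, with median-of-ratios scaling and with quantile normalization. Leaving out 1 sample gave 4 to 5 DEGs in the adenine model (5 without control 2, Plod2 being added) and 4 to 6 in the UUO model (6 without UUO 3, Plod1 being added). With FPKM rescaled to the same sum, Plod2 reached the fold threshold in both models (2.06 in each) and Plod1 in the UUO model (2.07).

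Of the 2 genes that differed between the models, 1 remained with median-of-ratios scaling, with quantile normalization and without adenine 1, where the difference of Lox was 1.25, 1.302 and 1.38, and 0 remained when a difference of at least 2 was asked. Leaving out 1 sample gave 1 to 2 such genes. With a pseudocount of 1, Loxl3 was called as well (0.68). Differences that were not called changed sign, with median-of-ratios scaling to -0.15 for Loxl2, -0.096 for Plod1, -0.27 for Plod2, -0.20 for Plod3 and -0.12 for P4ha1, and with quantile normalization to -0.058, -0.046, -0.25, -0.19 and -0.069 for the same genes. That of Plod2 was -0.0056 with FPKM rescaled to the same sum, and that of Loxl4 0.049 with a pseudocount of 1. Leaving out 1 sample gave ranges of -0.078 to 0.39 for Loxl2, -0.32 to 0.24 for Plod2 and -0.056 to 0.39 for P4ha1. The causes were not tested.

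Median-of-ratios scaling took the upregulated share of all DEGs from 68.0% to 60.1% in the adenine and from 75.8% to 58.8% in the UUO model. Deviations of same-numbered samples correlated at -0.12 to -0.049 in the adenine and 0.050 to 0.11 in the UUO table. Those of different-numbered samples correlated at -0.044 to 0.11 and at -0.078 to 0.016. Same-numbered pairs were thus the lowest in the adenine and the highest in the UUO table, with weak values in both. The numbers were not taken as pairs. With the number as a replicate block the enzyme DEGs were 4 and 5 and the genes that differed between the models 2.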

Other observations

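For each enzyme gene, the symbols with the most similar pattern were sought by Pearson r over the 12 samples, each centred on the mean of its table, among 13486 symbols. The points share the contrast between diseased and control samples, so high values were common. With Loxl2, 1900 symbols had an r above 0.95, Loxl2 itself among them. The most similar were Rpl4 for Lox (0.996), Cnrip1 for Loxl1 (0.998), Dnal4 for Loxl2 (0.997), Tp53bp1 for Loxl3, Cadm4 for Loxl4, Adam8 for Plod1, Ptma for Plod2, Ccar2 for Plod3 and Pbdc1 for P4ha1. P4ha3 had 1 symbol above 0.95, and the 3 most similar to it were Oas1a, Usp18 and Oas1i. Its level was too low to be tested and passed FPKM of 1 only in UUO 1 and UUO 2, so its r values rest largely on these samples. Among the enzymes themselves, r was 0.986 for Lox with Loxl1, 0.982 for Plod1 with Plod3 and 0.931 for Plod1 with Plod2, and it was 0.633 for P4ha3 with Loxl4 and with P4ha1.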
